A study of Mus musculus with 8 samples.

Results

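Replication timing was read at 10 imprinted genes that lie outside the large imprinted clusters of the mouse genome: Gnas, Nespas, Nnat, Mest, Peg10, Sgce, Grb10, Plagl1, Impact and Rasgrf1. They were chosen by name, and each took the timing score at its midpoint on mm10, with the profile 1 Mb either side. All 10 had a score, out of 21532 genes scored, and they fall at 8 loci because Gnas overlaps Nespas and Peg10 adjoins Sgce. The gene table lists Nespas as Gnasas1, an antisense RNA.

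The study profiled mouse embryonic stem cells by Repli-seq, in which cells take up the nucleotide analogue BrdU, here for 2 h, and are sorted into early and late S phase before the newly made DNA is recovered, here from 40000 cells per fraction. Control cells were compared with cells taken 2 days after dTAG, a small molecule that drives degradation of a tagged protein, here the transcription factor YY1. The 8 samples, an early and a late fraction each, made 4 profiles: control 1, control 2, dTAG 1 and dTAG 2. For culture and treatment the labels point to earlier published work, and they give neither the cell line nor its clone. In the sample descriptions only the second replicate of each group carries a number, while the names of the deposited score columns number both. Nothing says that replicates came from separate cultures. The p-values here measure the spread among 4 profiles, which may be technical. For dTAG replicate 1 the titles and the stated fractions disagree on which sample is early, and its scores at the 10 genes were above 0, as were those of the other profiles.

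An imprinted gene is expressed mainly from the copy inherited from one parent, and a control region that carries DNA methylation on only one copy sets which. The parental copies of an imprinted domain can replicate at different times in S phase, and the scores used here are not split by parental copy. YY1 is a zinc finger protein found at promoters and enhancers, which it can hold together in loops, and Nespas, Peg10 and Gnas were included because YY1 sites are known in their control regions.

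Promoter sequences show what kind of start sites these genes have. RefSeq promoters on GRCm38.p6, the assembly behind mm10, were at hand for 6 of the 10 genes (Gnas, Nnat, Mest, Rasgrf1, Plagl1 and Grb10), with 12 start sites. Nespas, Peg10, Sgce and Impact had no entry. Imprinted promoters are often rich in CpG, the dinucleotide that carries methylation, and the 12 windows of 300 bases held 8 to 45 CpG, each above the median of 7 over 32619 promoters. The 12 are not all separate stretches. Windows overlap at the Gnas starts 174327749 and 174327768 and at the Mest starts 30738050 and 30738053. The 3 below were chosen to show CpG-rich starts at genes that the results turn on, and they span neither the lowest nor the highest content. They give the 250 bases before a start, 5′ to 3′ on the plus strand, with each CpG in capitals. The Gnas stretch at chr2:174329756-174330005 holds 29 CpG, the Plagl1 stretch at chr10:13090582-13090831 holds 19, and the Mest stretch at chr6:30737800-30738049 holds 14.

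Gnas: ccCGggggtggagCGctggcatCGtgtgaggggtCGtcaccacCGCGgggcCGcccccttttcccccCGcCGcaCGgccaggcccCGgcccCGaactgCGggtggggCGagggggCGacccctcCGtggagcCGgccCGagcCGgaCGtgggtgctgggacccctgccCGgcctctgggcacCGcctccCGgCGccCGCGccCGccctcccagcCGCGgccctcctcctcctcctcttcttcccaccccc

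Plagl1: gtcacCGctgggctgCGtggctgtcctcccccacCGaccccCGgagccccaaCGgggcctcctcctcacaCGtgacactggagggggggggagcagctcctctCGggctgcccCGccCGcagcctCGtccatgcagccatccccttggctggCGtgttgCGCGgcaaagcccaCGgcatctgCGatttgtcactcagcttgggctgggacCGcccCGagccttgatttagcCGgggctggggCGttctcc

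Mest: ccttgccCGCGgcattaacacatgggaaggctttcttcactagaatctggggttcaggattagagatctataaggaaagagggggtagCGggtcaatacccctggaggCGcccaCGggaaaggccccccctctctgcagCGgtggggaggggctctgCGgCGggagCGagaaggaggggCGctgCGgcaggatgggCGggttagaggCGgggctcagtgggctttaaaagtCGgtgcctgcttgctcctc

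A core recognised by YY1, GCCATNTT, was searched on both strands and lay in 0 of the 12 promoters, against 6.08% of all promoters. Its shorter form CCATNTT, which is contained in the longer, lay in 2 of the 12, against 16.1% of all. The 2 stretches that hold it are shown with the match in capitals, both with CCATTTT on the gene's own strand. At Nnat, chr2:157559828-157560077 on the plus strand, the match begins at -195 counted from the start. At the second Grb10 promoter, chr11:12027972-12028221 on the minus strand, it begins at -203. A match of letters is a description and no binding was measured.

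Nnat: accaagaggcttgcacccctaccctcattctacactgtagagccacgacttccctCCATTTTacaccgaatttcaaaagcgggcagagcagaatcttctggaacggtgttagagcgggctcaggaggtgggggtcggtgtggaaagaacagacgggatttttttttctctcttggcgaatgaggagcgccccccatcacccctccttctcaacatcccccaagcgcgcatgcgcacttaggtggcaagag

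Grb10: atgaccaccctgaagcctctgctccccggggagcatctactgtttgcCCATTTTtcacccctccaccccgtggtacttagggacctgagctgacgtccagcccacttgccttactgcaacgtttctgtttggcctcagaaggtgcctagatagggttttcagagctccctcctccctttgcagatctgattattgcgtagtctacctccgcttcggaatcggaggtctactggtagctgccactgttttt

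All 10 genes scored above 0 in every profile, where high scores were read as early replication. None of them was called as different between dTAG and control. With 2 profiles per group, this does not show that their timing was unchanged. Their median score was 2.36, against 3.25 over all genes, of which 79.7% scored above 0. The genes ran from Grb10 with a mean of 4.23 over the 4 profiles, above 82.5% of genes, to Rasgrf1 with 1.87, and 7 of the 10 lay below the median of all genes. Gnas with Nespas and Peg10 with Sgce each count a shared signal, and all of them lay below that median. The count and the median of 2.36 are therefore not over separate loci. Among all genes tested with limma, 0% were called at an adjusted p of 0.05 between dTAG and control, and 0 of the 10 imprinted genes were called (adjusted p 0.9999 at each, unadjusted 0.381 to 0.923). Unadjusted, 171 genes of the whole table had a p under 0.05. The standard error of the difference was 0.32 to 0.57 score units, and at each gene it was larger than the difference itself, in a fit whose spread includes the offset between replicate numbers. With the replicate number as a block the standard error was 0.19 to 0.22, smaller than the difference at Gnas, Nespas, Mest, Peg10 and Sgce, and the limma adjusted p of the 10 genes was 0.735 to 0.982.

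The order from early to late was Grb10, Nnat, Impact, Plagl1, Mest, Sgce, Peg10, Nespas, Gnas and Rasgrf1. Between neighbours in this order, Plagl1 and Mest alone had ranges that did not overlap, with means of 3.12 and 2.44. Overlap over the 4 profiles includes the offset between replicate numbers: Grb10 was earlier than Nnat, Nnat earlier than Impact, Sgce earlier than Peg10 and Nespas earlier than Gnas in all 4 profiles. Mest and Sgce, Peg10 and Nespas, and Gnas and Rasgrf1 each changed places between profiles, with one gene earlier in 2 of the 4.

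Replicate 1 scored above replicate 2 at 9 of the 10 genes in the control, Impact being the exception, and at all 10 after dTAG. Over all genes the median of this difference, with its sign, was 0.46 after dTAG. In the control the median of its size, without sign, was 0.42, so these values are unlike measures and are not compared. The deposited profiles had been given distributions with opposite means, 0.20 for replicate 1 and -0.20 for replicate 2. Beside each comparison, the first value in brackets is therefore the difference in replicate 1 alone and the second that in replicate 2 alone.

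**Figure D1:**
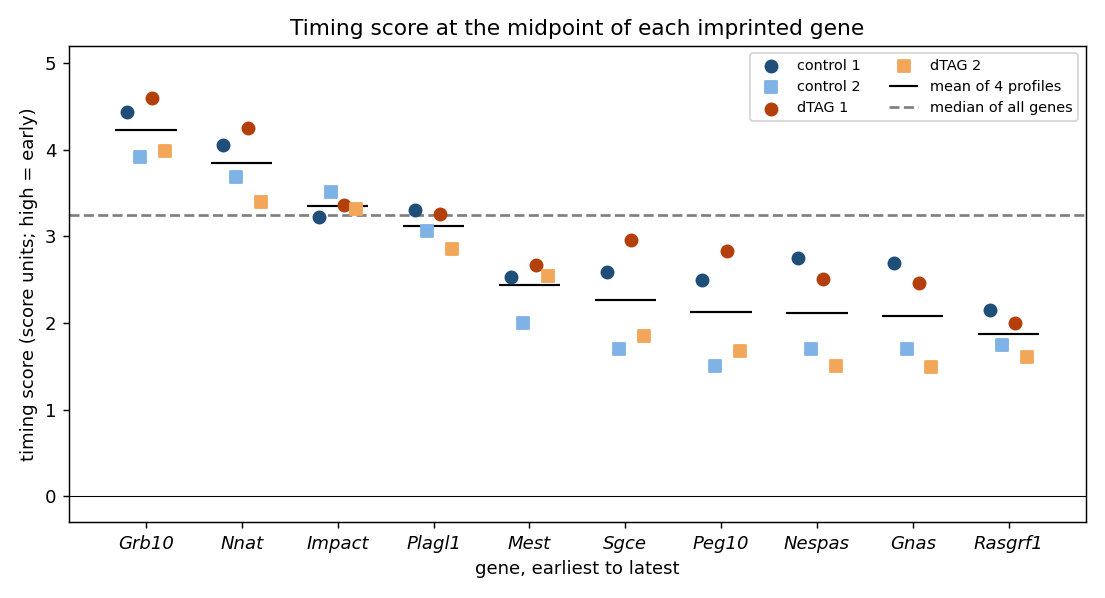
Timing score at the gene midpoint (vertical axis, score units, high is early) for the 10 imprinted genes, ordered from earliest to latest. Circles are replicate 1, squares are replicate 2, blue is control and orange is dTAG, the bar is the mean of the 4 profiles and the dashed line the median of all genes, 3.25. Grb10 and Nnat lie wholly above that median, and the 6 genes from Mest to Rasgrf1 lie wholly below it.

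Among the signalling genes, Gnas encodes the alpha subunit of the stimulatory G protein and has several promoters, some used from the maternal and some from the paternal copy. It lies at chr2:174284320-174346744 and scored 2.70 and 1.70 in the control and 2.46 and 1.49 after dTAG. The means were 2.20 ± 0.71 (SD, n = 2) and 1.98 ± 0.69, so that the 2 replicates of a group stood 0.998 apart in the control and 0.975 after dTAG while the groups differed by -0.22 (SE 0.54). Within the replicate numbers the difference was -0.23 and -0.21. Gnas scored above 34.4% of genes.

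Nespas is the paternally expressed antisense RNA that runs from within the locus across the upstream Gnas promoter. At its midpoint (chr2:174281237-174295436) the scores were 2.76 and 1.70 in the control and 2.51 and 1.50 after dTAG. The means were 2.23 ± 0.74 (SD, n = 2) and 2.01 ± 0.72. The difference of -0.22 (-0.24 and -0.20; SE 0.55) repeats that of Gnas, since the transcripts overlap and the smoothed scores share reads. Of 6 genes beside the locus, 5 scored lower after dTAG, all 6 with one sign in both replicate numbers. Nelfcd, a subunit of the negative elongation factor, was furthest from its control, at -0.24 (-0.28 and -0.21). Zfp831 was the one that scored higher, by 0.15.

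Around Gnas the whole flank scored above 0, with mean scores from 0.47 at 294 kb on the side of higher coordinates to 3.56 at 624 kb on the same side. The lowest of these lay below the 25th percentile of all genes, 0.86. The gene sat beside a low local peak of 2.13 at -45.5 kb (distances are from the midpoint, negative toward lower coordinates), and the score changed by only -0.18 over the 200 kb centred on it. Of the 41 windows of 50 kb in this flank, 24 scored lower after dTAG in both replicate numbers and 6 scored higher in both. Over all windows the shares were 29.0% and 31.7%. Windows of one flank are smoothed and neighbouring, here and at the other genes, so they are not independent of each other. Groups overlapped in all 41, and the furthest window, centred at -941 kb, differed by -0.65 (-0.44 and -0.86).

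Grb10 encodes an adaptor that binds insulin and IGF receptors and restrains growth, and it is expressed from the maternal copy in most tissues and from the paternal copy in neurons. At chr11:11930499-12037428 it was the earliest of the 10, with 4.43 and 3.91 in the control and 4.60 and 3.99 after dTAG. The dTAG profiles averaged 4.30 ± 0.43 (SD, n = 2) against 4.17 ± 0.37, a difference of 0.13 (0.17 and 0.08; SE 0.40), and the groups overlapped.

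The Grb10 peak, with a mean score of 4.28 at 16.0 kb from the midpoint, lay inside a broad early stretch whose highest score was 4.35, at -229 kb, and at -999 kb the score was -3.11. Only 8 protein-coding genes had their midpoint within 1 Mb, the lowest number among the 10, against a median of 28. In the flank, 30 of 41 windows scored higher after dTAG in both replicate numbers and 4 lower in both. In 18 windows both dTAG profiles exceeded both controls, where 10.9% of all 51425 windows did, but the gap reached 0.5 in none of them, and limma called 0% of all windows and none of these 41. Of the 4 genes beside Grb10, Fignl1, a AAA ATPase of DNA repair, differed most, by 0.36, but by 0.97 in replicate 1 and -0.25 in replicate 2.

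Rasgrf1 encodes a Ras exchange factor, paternally expressed and best known in brain. At chr9:89909508-90026979 it was the latest of the 10, scoring 2.15 and 1.74 in the control and 2.00 and 1.60 after dTAG. The means were 1.95 ± 0.29 (SD, n = 2) and 1.80 ± 0.28, with overlapping groups and a difference of -0.14 (-0.15 and -0.14; SE 0.35). The gene lies across a slope: the mean score went from 0.43 at 100 kb toward lower coordinates to 2.74 at 100 kb toward higher ones, by 2.31 over 200 kb, the steepest slope at any of these genes.

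This slope belongs to a narrow early domain that peaked at 2.90, 162 kb from the midpoint, between late stretches. On one side the score reached -4.66 at 732 kb, and 42.5% of the flank lay above 0, the lowest share among the 10. All 4 neighbours listed for the locus scored lower after dTAG in both replicate numbers. Tmed3, a gene of vesicle transport at -266 kb, was furthest from its control at -0.40 (-0.39 and -0.40). In the flank 27 of 41 windows were lower in both replicate numbers, and in 4 both dTAG profiles lay below both controls, beside 8.53% of all windows. The lowest window, -0.74, rested on replicate 1 (-1.29 against -0.18).

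Of the regulators, Plagl1 encodes a zinc finger transcription factor that restrains cell growth and is expressed from the paternal copy. At chr10:13090832-13131694 the scores were 3.31 and 3.06 in the control and 3.26 and 2.86 after dTAG. They averaged 3.18 ± 0.17 (SD, n = 2) and 3.06 ± 0.28, a difference of -0.12 (-0.05 and -0.20; SE 0.34), and the groups overlapped. The score was near the middle of all genes, above 47.5% of them, and a peak of 3.32 lay at -211 kb.

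Further out, the flank of Plagl1 held the widest separation of dTAG from control near any of the genes. In 14 of its 41 windows both dTAG profiles lay below both controls, where 8.53% of all windows did. In 6 of them the gap was at least 0.5, where 1.09% of all windows had such a gap. These 6 joined into a stretch of 300 kb, chr10:13800001-14100000, that begins 689 kb from the midpoint of Plagl1. Being smoothed and side by side, they are not 6 independent observations. The stretch was chosen after its values were seen. Scores there were -0.46 and 0.33 in the control and -1.51 and -1.60 after dTAG. The dTAG profiles were close together at -1.56 ± 0.06 (SD, n = 2), the controls lay near 0 at -0.06 ± 0.56, and the difference was -1.49 (-1.05 and -1.93).

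No window of this stretch was called by limma (lowest unadjusted p 0.0107, adjusted p 0.99999), and with the replicate number as a block the adjusted p was 0.231 to 0.249. Hivep2, a large zinc finger gene at chr10:13961609-14151378, has its midpoint in it and scored -0.67 and -0.19 in the control and -1.57 and -1.92 after dTAG. Its difference of -1.31 had an adjusted p of 0.9999 with limma, of 0.571 with the block, and of 0.00329 with the block and a trended and robust variance, a setting that called 2.61% of all genes. That setting called 0 of the 10 imprinted genes, with the lowest adjusted p at Mest, 0.247. The 4 listed neighbours of Plagl1, all nearer to it than this stretch, had differences of -0.34 to -0.01. The lowest was at Phactr2, a regulator of actin, at -0.34 (0.01 and -0.70).

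Impact encodes a regulator of the kinase Gcn2 in translational control and is expressed from the paternal copy. At chr18:12954690-12992950 the scores were 3.23 and 3.51 in the control and 3.36 and 3.32 after dTAG. Here the control replicates stood in the opposite order to the other 9 genes, and the dTAG profiles agreed to within 0.04. The means were 3.37 ± 0.20 (SD, n = 2) and 3.34 ± 0.03, and the difference was -0.03 (0.13 and -0.19; SE 0.32).

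Impact sat near the end of an early domain, with a score of 3.0 at the far end of the flank toward lower coordinates and a descent to -2.56 on the other side. On that descent, a window 276 to 326 kb from the midpoint, chr18:13250001-13300000, was the only one near these genes in which both dTAG profiles lay above both controls by 0.5 or more, where 0.531% of all windows did. It too was chosen after its values were seen. It scored -0.18 and -0.20 in the control and 0.42 and 0.36 after dTAG, a difference of 0.58 (0.60 and 0.56; limma adjusted p 0.99999), and held no gene midpoint. Among the 4 listed neighbours, Hrh4, a histamine receptor gene between Impact and that window, differed by 0.12 (0.18 and 0.05).

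**Figure D2:**
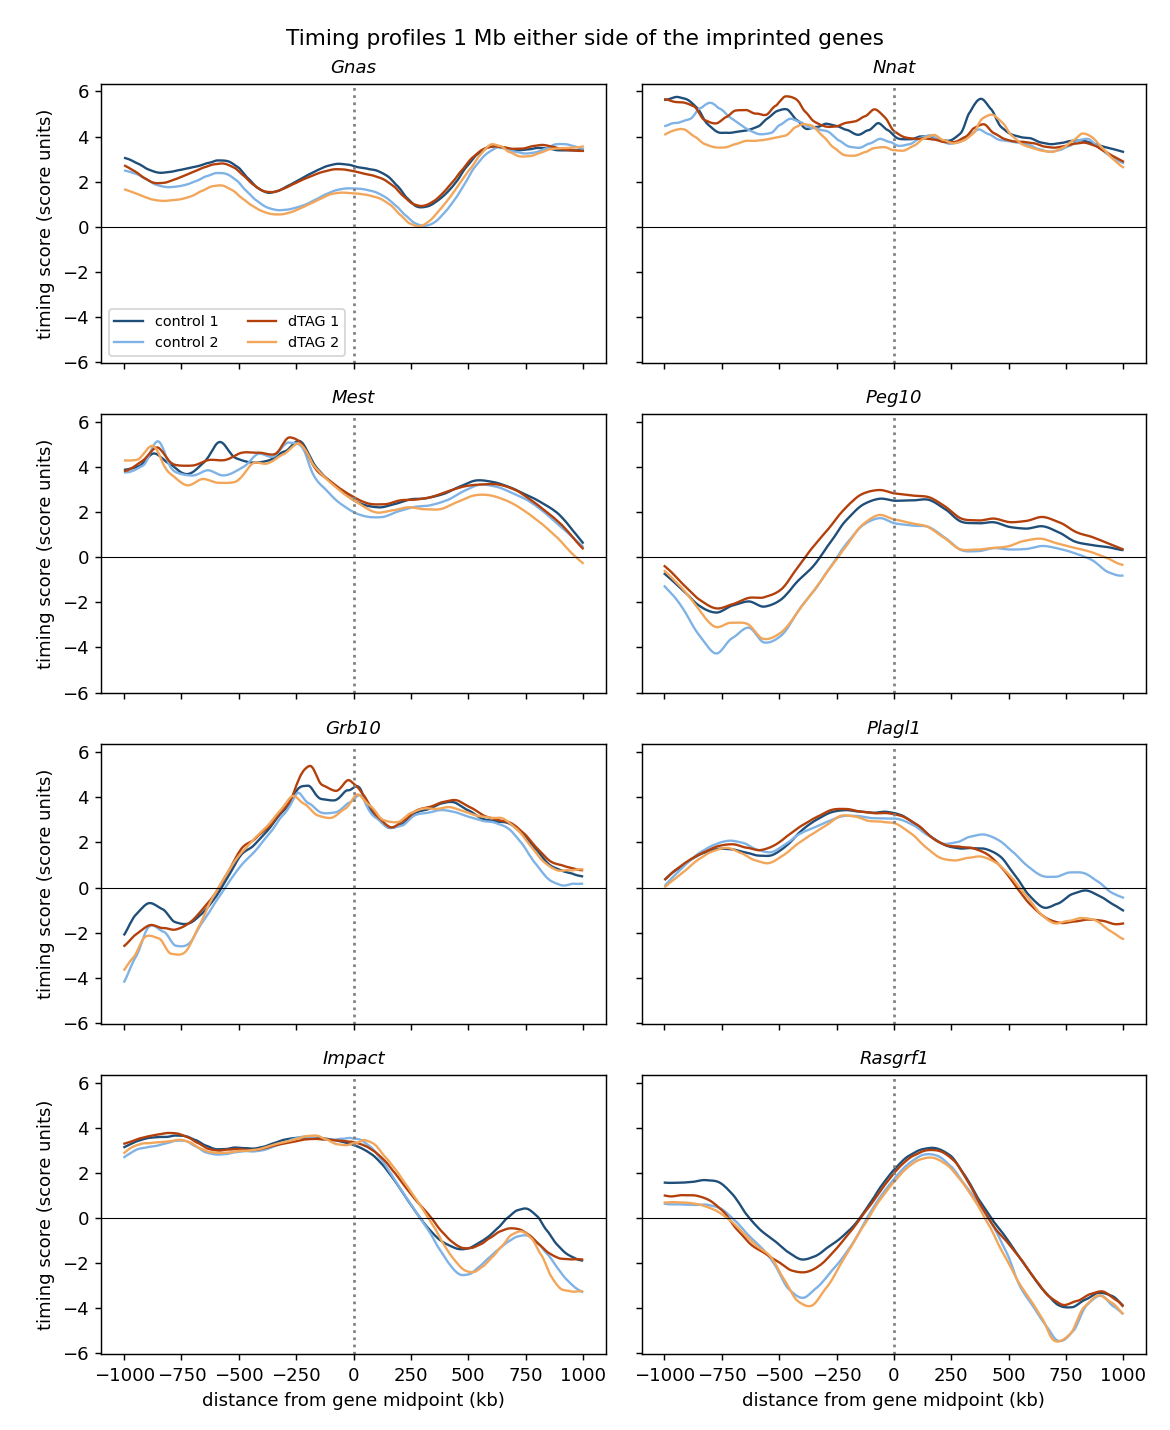
Timing score (vertical axis, score units) against distance from the gene midpoint (horizontal axis, kb, positive toward higher coordinates) at the 8 loci, with Gnas standing for Nespas and Peg10 for Sgce. Lines are the 4 profiles, control in blue and dTAG in orange, and they separate by group in the distal flank of Plagl1, where the stretch of 300 kb scored -0.06 in the control and -1.56 after dTAG.

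The remaining genes encode membrane and metabolic proteins or derive from a retrotransposon. Mest encodes a protein of the hydrolase fold family, expressed from the paternal copy and tied to embryonic growth. It lies at chr6:30733506-30748466. Scores were 2.54 and 2.00 in the control and 2.68 and 2.54 after dTAG. It was the only one of the 10 in which both dTAG profiles lay above both controls, as 10% of all genes did, and its lower dTAG score barely exceeded its higher control score (2.540 and 2.537). In none did both lie below, as 8.42% of all genes did.

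The Mest means were 2.27 ± 0.38 (SD, n = 2) in the control and 2.61 ± 0.10 after dTAG. The difference of 0.34 was the largest of the 10 but came mostly from replicate 2 (0.14 and 0.54; SE 0.35). In size it exceeded the difference at 76.8% of all genes. Mest lies on a slope down from a peak of 5.10 at -246 kb, and the mean score changed by -1.10 over 200 kb. All 8 listed neighbours scored higher after dTAG on the mean, 5 of them with one sign in both replicate numbers. The highest was Cep41, a gene of the cilium, at 0.30 (0.04 and 0.57), and replicate 2 again held most of it.

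Nnat encodes neuronatin, a small membrane protein of brain and endocrine cells, and sits in an intron of Blcap, whose midpoint lies 0.06 kb from its own. At chr2:157560078-157562525 it scored 4.06 and 3.69 in the control and 4.26 and 3.40 after dTAG. The dTAG profiles stood further apart (3.83 ± 0.61, SD, n = 2) than the controls (3.87 ± 0.26) and enclosed them. The difference of -0.05 (SE 0.42) was the mean of values of opposite sign, 0.20 and -0.29. This opposition ran through the flank, in which 13 of 41 windows had one sign in both replicate numbers, the fewest among the 10. Of these, 1 was higher and 12 were lower, where 31.7% of all windows were higher in both and 29.0% lower in both. The flank replicated early throughout, from 2.92 to 5.06, and had 30 coding genes within 1 Mb, the most of the 10. Blcap took the same position as Nnat and the same value. Ctnnbl1 and Bpi, the other listed neighbours, differed by -0.05 and -0.09.

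Peg10 is a domesticated retrotransposon gene required in the placenta, and Sgce encodes epsilon-sarcoglycan of the dystrophin-associated complex; both are paternally expressed and start from a shared control region. Peg10, at chr6:4747306-4760517, scored 2.50 and 1.51 in the control and 2.83 and 1.68 after dTAG. Its means were 2.00 ± 0.70 (SD, n = 2) and 2.25 ± 0.81, a difference of 0.25 (0.33 and 0.17; SE 0.57). Each replicate number scored higher after dTAG, but the groups overlapped because the replicates stood 0.995 apart in the control and 1.15 apart after dTAG.

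Sgce, at chr6:4674350-4747204, scored 2.59 and 1.70 in the control and 2.95 and 1.85 after dTAG. Its means were 2.14 ± 0.63 (SD, n = 2) and 2.40 ± 0.78, a difference of 0.26 (0.37 and 0.15; SE 0.54). A local peak of 2.29 lay at -15.8 kb from the midpoint of Sgce and at -58.9 kb from that of Peg10, so the pair occupied the earliest place of its flank, which reached down to -3.02 at -774 kb from Peg10. All 41 windows around Peg10 scored higher after dTAG on the mean, with a lowest difference of 0.04, while 52.0% of all windows did. In 33 of the 41 both replicate numbers scored higher, as in 31.7% of all windows. In 2 both dTAG profiles exceeded both controls, where 10.9% of all windows did. The windows are smoothed and neighbouring, so they are not independent of each other.

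Of the 9 genes listed beside Peg10 and Sgce, 8 scored higher after dTAG, and all 9 had one sign in both replicate numbers. Tfpi2, a maternally expressed protease inhibitor gene, was the latest of all 42 listed neighbours, at -3.01, and differed most, by 0.68 (0.19 and 1.18). It scored -2.45 and -4.26 in the control and -2.26 and -3.08 after dTAG. Casd1, next to Sgce, differed by 0.26 (0.49 and 0.04), and Ppp1r9a, a neurabin gene on the other side, by 0.07 (0.14 and 0.00). Dync1i1, beyond 1 Mb, was the one that scored lower, by -0.23. limma called 0 of the 42 neighbours.

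**Figure D3:**
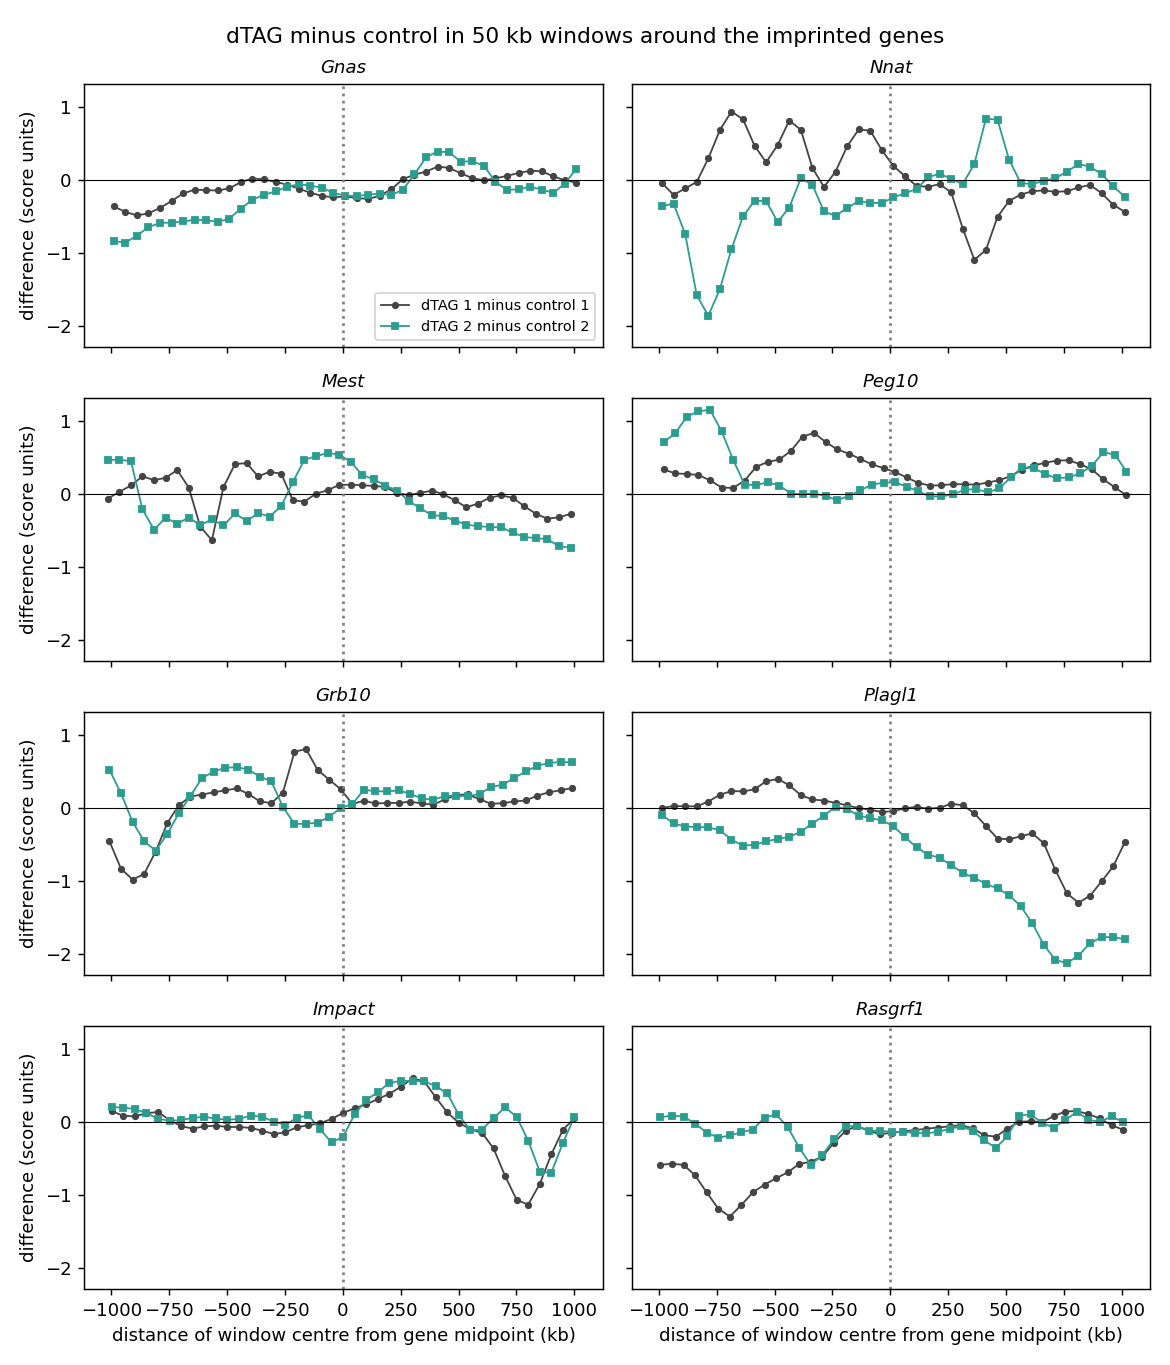
Difference after dTAG in windows of 50 kb (vertical axis, score units) against the distance of the window from the gene midpoint (horizontal axis, kb), for dTAG 1 minus control 1 (dark circles) and dTAG 2 minus control 2 (green squares). Both series lie below 0 in the far distal flank of Plagl1, with averages of -1.05 and -1.93 over the stretch of 300 kb, and they run in opposite directions over much of the Nnat flank.

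Across the 10 genes, 4 scored higher and 6 lower after dTAG, with a median difference of -0.04, beside -0.02 over all genes. The median was 0.13 within replicate 1 and -0.17 within replicate 2. In 8 of the 10 both replicate numbers had one sign, against 55.9% of all genes; the exceptions were Nnat and Impact. These 8 fall at 6 loci, and Gnas with Nespas and Peg10 with Sgce each count a shared signal. Of the 3 genes included for their YY1 sites, Peg10 scored 0.25 higher and Gnas and Nespas each differed by -0.22. All 10 differences lay within 0.5 of 0, as did 89.9% of all genes.

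**Figure D4:**
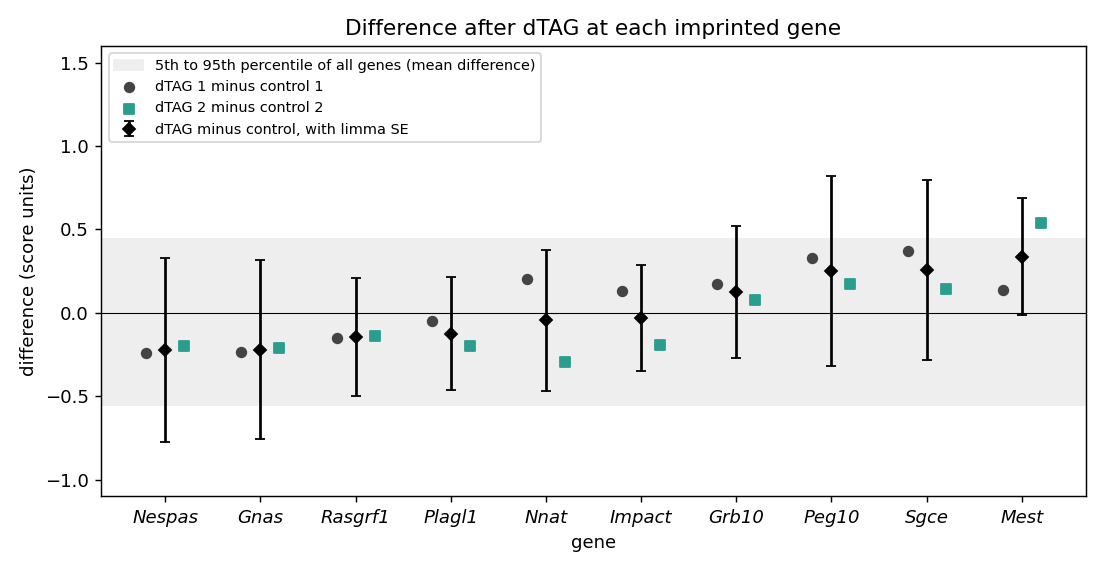
Difference after dTAG (vertical axis, score units) at each of the 10 genes, ordered from lowest to highest. Diamonds with bars are dTAG minus control with the standard error of the limma fit without the block, circles and squares are the differences within replicate 1 and replicate 2, and the grey band spans the 5th to the 95th percentile of all genes, -0.55 to 0.45. Every diamond lies inside the band, from -0.22 at Nespas to 0.34 at Mest, and every bar crosses 0, that of Mest (SE 0.35) only just; the blocked standard errors of 0.19 to 0.22 are not drawn.

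In place, 8 of the 10 genes scored above the median of their own flank, the exceptions being Nnat and Mest. The same count was not made over all genes, so it is not shown to be a trait of these genes. Genes score higher than positions at large: Gnas lay above 66.7% of positions but 34.4% of genes. Gnas with Nespas and Peg10 with Sgce each share a flank, and Gnas exceeded its flank median only narrowly (2.09 against 2.04). Sgce exceeded 98.2% of its flank positions, Grb10 95.2% and Peg10 94.2%, whereas Nnat exceeded 30.2% and Mest 29.0%. Neither the controls alone nor the dTAG profiles alone changed this count of 8. As neighbourhoods, 9 of the 10 had fewer coding genes within 1 Mb than the median gene.

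By a fixed rule, the gene on another chromosome whose 4 scores were nearest (Euclidean distance over the 4 profiles) was found for the 3 loci with the largest differences. For Mest it was Msra, on chromosome 14, at 0.10 units. For Peg10 it was Pgpep1l, on chromosome 7, at 0.13, and for Gnas it was Xpa, on chromosome 4, at 0.12. Xpa scored 2.60 and 1.65 in the control and 2.44 and 1.54 after dTAG.

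Other imprinted genes gave a comparison. The 28 other genes listed as imprinted outside the large clusters had a median score of 3.27, with 23 above 0, and a median difference of -0.06. They were listed by name, and their imprinting in these cells was not checked. Not all are separate loci, since Mcts2 and H13 took the same scores. Their highest difference was at the potassium channel gene Kcnk9, 0.55 (0.61 and 0.49), and their lowest at Nap1l5, a retrotransposed gene within Herc3, at -1.21 (-0.86 and -1.56). The 32 genes of the large clusters scored lower, with a median of 1.65 and 20 above 0, and their median difference was 0.06. Many of the 32 lie side by side with like scores, such as Phlda2 (3.61) and Slc22a18 (3.59). Each cluster therefore weighs by its number of listed genes. In that list Airn, the antisense RNA at Igf2r, was highest at 0.54 and Snrpn lowest at -1.20. limma called 0 genes of either list. With the block and the trended and robust variance it called 3 of the 28 and 1 of the 32, beside 2.61% of all genes and none of the 10. The difference in timing between the lists was not tested.

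**Figure D5:**
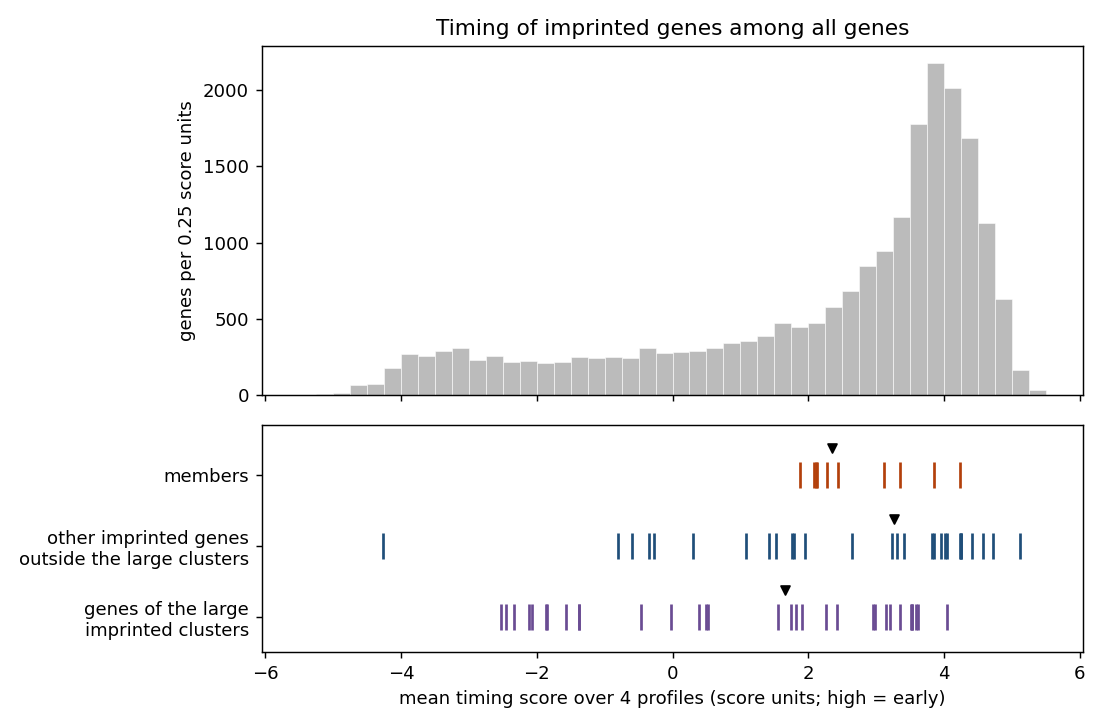
Mean timing score over the 4 profiles (horizontal axis, score units) of all genes, as a histogram in steps of 0.25 units (top), and of each gene of 3 imprinted lists, as ticks (bottom), with triangles at the list medians of 2.36, 3.27 and 1.65. The 10 genes described here, plotted as members, lie between 1.87 and 4.23, while both other lists reach below 0.

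Marker genes were read in the same way, although timing is not expression. All 8 stem cell markers, among them Pou5f1 and Nanog, scored above 0, with a median of 3.49 and a median difference of -0.09. Neural markers were above 0 in 4 of 4, mesoderm and endoderm markers in 4 of 6 and trophoblast markers in 3 of 3. The depth behind each score is unknown, since the table gives no read counts.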

How the data were processed

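The authors deposited 1 table with a signed score per 5 kb position and a column for each of 4 profiles, each made from an early and a late fraction. Per the file name and header the score was smoothed with Loess (400k) and quantile normalized; its formula, log base and direction were not stated in the labels or the file. Bowtie2, SAMtools, bedtools and mm10 are named in the submitters' processing notes, without versions. High was read as early because 79 of 80 ribosomal protein genes scored above 0, against 374 of 1109 olfactory receptor genes.

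Values at 514245 positions were used, leaving out 4 with a value in some profiles only. Each gene, placed by RefSeq on GRCm38.p6, took the position within 2.5 kb of its midpoint, and 108 genes had none. Windows of 50 kb needed values in at least 5 of 10 positions. Groups were compared over all genes and all windows by limma 3.58.1 (R 4.3.3) with treatment as the sole term, moderated by eBayes, with 2-sided p adjusted by Benjamini-Hochberg and called at 0.05; the scripts were tested on simulated data. An exact permutation test of 2 against 2 cannot go below p = 0.333, so none was used. Promoters, flanks and plots were made with Python 3.11.15, scipy 1.17.1 and matplotlib 3.10.9. A local peak needed a prominence of 0.5.

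The genes, neighbours, other imprinted genes and markers were chosen by name, with earlier results of these data known. Named were all 10 members, the neighbour furthest from its control at each locus, the highest and lowest difference of each imprinted list and the most alike genes; other names were chosen after their values were seen. The alternatives were the replicate number as a block, other scalings and centrings, other places of the score and leaving out each profile. The table gives no strand, so both gene ends stood in for the start site.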

Additional observations from a re-analysis of the deposited data

How the results depend on the processing

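The number of the 10 genes called was 0 under every alternative. With 1 profile left out, 1 profile stood against 2 and was assumed to vary like the other group, so a count of 0 there says nothing about stability. Under the replicate block, limma called 0 genes of the whole table, and 1656 had an unadjusted p under 0.05. Whether same-numbered profiles share a culture is not stated in the labels; the deviations of control 1 and dTAG 1 from their group means correlated at 0.64 over genes. Adding a trended and robust variance to the block brought the calls to 562 genes, and leaving out 1 profile gave 0 to 5 (4 without dTAG 1 and 5 without dTAG 2).

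The count of genes with both dTAG profiles on one side of the controls, 1 with all profiles, was 3 with all profiles on one distribution, 3 with each centred on its median, 0 with the mean over 50 kb, 0 at the higher gene end, 0 with a gap of at least 0.25 and 0 with one of 0.5. Without 1 profile it was 5 to 6, but there 1 profile stands against 2 and falls outside them more easily. That rise therefore says nothing about separation of the groups. The share over all genes was counted only with all profiles at the midpoint, 10% above and 8.42% below, and not under these alternatives. The shorter YY1 core lay in 2 member promoters and the longer in 0.

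Leaving out 1 profile unbalances the replicate numbers: the median difference of all genes became 0.19 when control 1 was left out, -0.22 for control 2, -0.27 for dTAG 1 and 0.20 for dTAG 2, and that of the 10 genes ran from -0.32 to 0.33. The sign at Mest held in each of these, with differences from 0.07 to 0.60. That was fixed in advance, since both its dTAG profiles lay above both controls, and it says nothing about stability. The other 9 genes changed sign in at least 1: Gnas ran from -0.72 to 0.28, Nespas from -0.75 to 0.30, Nnat from -0.48 to 0.39, Peg10 from -0.33 to 0.82, Sgce from -0.30 to 0.81, Grb10 from -0.18 to 0.43, Plagl1 from -0.32 to 0.0741, Impact from -0.18 to 0.11 and Rasgrf1 from -0.35 to 0.0598. Gnas, Nespas, Nnat and Rasgrf1 turned without control 1 or dTAG 2, Peg10, Sgce and Grb10 without control 2 or dTAG 1, Plagl1 without dTAG 2 and Impact without control 2. With all profiles kept, Impact alone turned, at the higher gene end (0.0048); the block leaves each difference as it was by construction, and so does centring on medians here, since each group holds 1 profile of either mirrored distribution. Without 1 profile the stretch distal to Plagl1 differed by -1.89 to -1.10 and the Impact window by 0.55 to 0.61, signs that the choice of these windows fixes. Scores carry no depth, so no counting error could be given.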
